A study of Homo sapiens with 16 samples.

Results

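The regions described here are stretches of the H3K9me2 peak table that lie in introns, outside annotated repeats, in BJ-5ta fibroblasts with and without LEO1. They were chosen by position alone, as the regions whose detailed annotation begins with an intron and not with a repeat, an exon, a promoter or intergenic space. The rule found 1823 of the 16092 regions. H3K9me2, histone H3 dimethylated on lysine 9, is a mark of silent chromatin that can cover long repressed domains, genes included. LEO1 is a subunit of the PAF1 complex, which accompanies RNA polymerase II during elongation and affects histone modifications on transcribed genes. BJ-5ta cells are human fibroblasts of an established line made immortal with hTERT.

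Chromatin was taken from wild-type cells and from ΔLEO1 cells, 1 clone made with CRISPR/Cas9 aimed at the start of LEO1. Both genotypes carry hTERT and were grown in 10% serum, where they proliferate, or held in 0.1% serum for 10 days to become quiescent. Each combination gave 2 ChIP and 2 input libraries, replicates A and B, so that 16 libraries form 8 groups. The labels call the antibody H3, and the methods of the study name H3K9me2. Nothing stated that A and B came from separate cultures, so p-values measure only the spread between these libraries.

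The ΔLEO1 10% serum ChIP replicate A library held 21 reads over the regions and was left out, which left 1 ChIP library in that group. The other 7 ChIP libraries held 217472 to 366633 reads over the regions, and the 8 input libraries 111132 to 238490. A typical intronic region held few reads, with a median of 11 to 20 per ChIP library. Over 3 windows at the LEO1 start, ΔLEO1 inputs held 9 to 35 reads and wild-type inputs 21 to 53, and these windows do not check the knockout. Levels are given as CPM, read counts scaled to a common library total over all peak regions with TMM factors. This scale compares regions with each other and cannot show a change shared by all of them.

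A few intronic regions reached over the start of a gene, and sequences of some of the promoters that they cover are shown. The RefSeq table for assembly GRCh38.p14 lists 35116 windows of 300 bases, from 250 before to 50 after a start. Of these, 17 met an intronic region and 9 lay wholly inside one, of which 5 are shown. The 5 windows below are written 5′ to 3′ on the strand of the gene, with each CG in capitals, the dinucleotide at which human DNA is methylated. In their labels, inside names the gene whose intron holds the region. SPAG17 does not enclose LOC105378930. The SPAG17 window, chr1:118185179-118185478 on the minus strand, overlaps that of LOC105378930, and the genes run in opposite directions.
LOC105378930, inside SPAG17, GRCh38.p14 chr1:118184980-118185279, plus strand: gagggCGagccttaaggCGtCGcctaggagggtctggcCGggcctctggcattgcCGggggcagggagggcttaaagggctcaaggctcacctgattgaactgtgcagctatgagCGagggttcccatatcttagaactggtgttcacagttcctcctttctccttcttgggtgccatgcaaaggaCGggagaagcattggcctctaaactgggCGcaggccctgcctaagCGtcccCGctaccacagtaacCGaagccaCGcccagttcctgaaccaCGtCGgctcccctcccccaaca
CPNE8, GRCh38.p14 chr12:38905542-38905841, minus strand: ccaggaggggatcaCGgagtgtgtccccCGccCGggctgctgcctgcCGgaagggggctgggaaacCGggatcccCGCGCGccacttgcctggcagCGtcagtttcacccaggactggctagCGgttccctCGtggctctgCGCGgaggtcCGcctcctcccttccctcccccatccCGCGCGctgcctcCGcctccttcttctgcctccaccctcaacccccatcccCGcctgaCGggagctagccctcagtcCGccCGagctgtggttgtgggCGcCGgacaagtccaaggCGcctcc
KCNH4, GRCh38.p14 chr17:42181093-42181392, minus strand: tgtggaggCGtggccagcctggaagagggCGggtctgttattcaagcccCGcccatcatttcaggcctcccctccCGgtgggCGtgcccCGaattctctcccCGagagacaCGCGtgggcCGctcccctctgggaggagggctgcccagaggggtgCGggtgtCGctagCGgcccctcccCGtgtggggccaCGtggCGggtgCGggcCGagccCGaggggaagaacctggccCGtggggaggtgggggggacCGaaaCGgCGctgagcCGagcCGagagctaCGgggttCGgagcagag
PTPRN, GRCh38.p14 chr2:219309352-219309651, minus strand: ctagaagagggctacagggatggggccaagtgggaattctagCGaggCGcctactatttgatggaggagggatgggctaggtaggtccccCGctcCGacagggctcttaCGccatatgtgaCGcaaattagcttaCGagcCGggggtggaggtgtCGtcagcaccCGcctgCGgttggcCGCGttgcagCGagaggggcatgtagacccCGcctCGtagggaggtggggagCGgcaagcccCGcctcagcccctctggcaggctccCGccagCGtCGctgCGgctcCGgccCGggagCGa
LOC105373504, inside AFF3, GRCh38.p14 chr2:99691949-99692248, plus strand: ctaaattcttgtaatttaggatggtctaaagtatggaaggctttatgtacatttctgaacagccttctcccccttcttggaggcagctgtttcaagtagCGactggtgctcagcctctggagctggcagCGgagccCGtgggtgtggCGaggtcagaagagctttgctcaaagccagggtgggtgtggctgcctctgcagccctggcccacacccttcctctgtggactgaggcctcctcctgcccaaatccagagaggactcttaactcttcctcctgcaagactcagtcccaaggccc

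The windows shown of CPNE8, KCNH4 and PTPRN were rich in CG, with 25, 27 and 25 of them, where the median of all windows was 14. A second PTPRN window in the same region, not shown, held 16. The LOC105378930 window held 14 and the LOC105373504 window 4. The letters GGGCGG, known as a GC box, occurred on either strand in 8 of the 17 windows and in 44.95% of all windows. CACGTG, an E-box, occurred in 2 of 17 and in 7.26% of all, and TATAAA on either strand in 2 of 17 and in 11.5% of all. GGGCGG contains a CG that is also counted above. These are matches of letters only, and some of the 17 windows overlap each other.

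CPNE8 encodes a calcium-dependent membrane-binding copine, KCNH4 a voltage-gated potassium channel and PTPRN a phosphatase-like protein of secretory granules. The PTPRN region held 201 and 167 CPM in wild-type 10% serum, 127 CPM in the ΔLEO1 10% serum library, 193 and 183 CPM in wild-type 0.1% serum and 207 and 237 CPM in ΔLEO1 0.1% serum. The ΔLEO1 libraries lay below wild type in 10% serum and above it in 0.1% serum, and the difference was not called in either serum (adjusted p = 0.753 and 0.851, edgeR quasi-likelihood test). The KCNH4 region held 188 and 160 CPM in wild-type 0.1% serum and 139 CPM in both ΔLEO1 0.1% serum libraries, a log2 difference of -0.32 (SE 0.24, adjusted p = 0.766, edgeR). The CPNE8 region differed by -0.02 (SE 0.30, adjusted p = 0.993, edgeR).

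Intronic regions were 500 to 4172 bp wide, with a median of 747 bp, and lay in long genes. For 1811 of them the transcript of the annotation matched a RefSeq gene, which gave 1221 host genes. Protein-coding genes held 1523 regions, lncRNA genes 268 and transcribed pseudogenes 18. The 1012 protein-coding hosts had a median length of 190.6 kb, against 24.1 kb for the 20056 protein-coding genes listed. Of these hosts 72.0% were longer than 100 kb, against 16.7% of all protein-coding genes. A longer gene has more room for a region, and the lengths were not tested. Intron 1 held 521 regions (28.6%) and the last intron 208.

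Most intronic regions lay far from a gene start. The median distance to the nearest start was 46878 bp, against 71706 bp for the 2674 intergenic non-repeat regions. Within 1 kb of a start lay 21 regions, at 1 to 5 kb 109, and beyond 100 kb 515. The nearest start was that of the host gene for 1051 regions (57.7%), and 480 regions lay upstream of their nearest start.

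**Figure D1:**
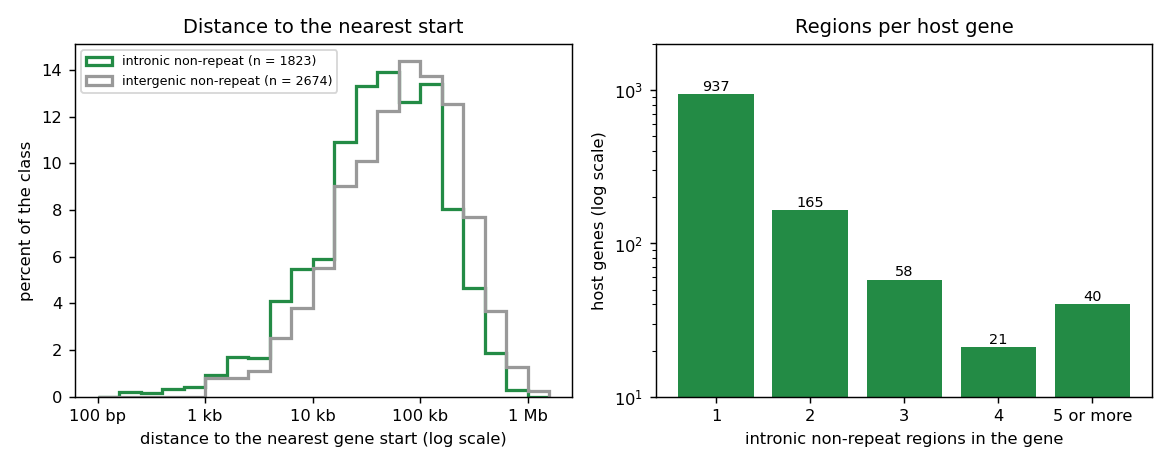
Left, percent of each class by distance to the nearest gene start (log axis) for 1823 intronic and 2674 intergenic non-repeat regions. Right, host genes (log axis) by the number of intronic regions they hold, from 937 genes with 1 region to 40 genes with 5 or more.

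The region closest to a start lay 174 bp from that of SPAG17, a gene of the ciliary axoneme, and held 68.9 to 100.5 CPM over the 7 ChIP libraries. A region of the lncRNA LOC101928535 lay 178 bp from a start. The farthest lay 872 kb into CSMD1, a very long gene for a membrane protein that regulates complement, and held 13.9 to 47.9 CPM. In ChIP level per length the SPAG17 region stood at 108.8 CPM per kb and the CSMD1 region at 59.8 CPM per kb. The input of the SPAG17 region was 104.7 CPM per kb, close to its ChIP level, so these levels alone do not compare the mark. Over the class, the median ratio of ChIP to input was 4.00 in the 130 regions within 5 kb of a start and 3.70 in the 183 regions beyond 200 kb, a description without a test. For this ratio libraries were scaled by their reads over windows of 2 kb at gene starts, not to CPM.

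Chromosome ends held a large share of these regions. Of the 1819 on placed chromosomes, 323 (17.8%) lay within 5 Mb of an end, taken as the outermost RefSeq gene. The share was 19.3% for intergenic non-repeat regions, 4.39% for LTR regions, 3.24% for LINE1 regions and 9.64% for all regions. By chromosome, intronic regions made up 5.27% of the regions on chromosome 4 and 31.5% of those on chromosome 22.

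Many regions gathered in a small set of genes. While 937 hosts held 1 region, 284 held more, and the 40 hosts with 5 or more held 286 regions. SDK1, a synaptic adhesion molecule, held 16 over 704 kb. ADARB2, a brain-expressed relative of the RNA-editing deaminases, held 15 over 382 kb. PTPRN2, a phosphatase-like protein of secretory vesicles, and TAFA5, a secreted chemokine-like protein, held 13 each. CDH4 (R-cadherin) and the collagen gene COL22A1 held 11 each, and the splicing regulator RBFOX1 held 10.

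Gene lists describe which kinds of genes carried intronic regions. Of 47 synaptic and neural adhesion genes 36 held at least 1 region (103 regions), and of 58 ion channel and neurotransmitter receptor genes 33 did (87 regions). Of 27 genes of common fragile sites 19 did (59 regions), of 58 transcription and chromatin regulators 21 (40 regions), and of 42 axon guidance and morphogen genes 13 (25 regions). Of 54 fibroblast matrix and cytoskeleton genes, which mark this cell type, 7 held a region (8 regions). Per Mb of gene length the lists were closer, from 1.32 regions for axon guidance through 2.10 for synaptic adhesion and 2.11 for matrix genes to 3.15 for channels and receptors.

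In ChIP level per length, the leading regions of the lists lay near each other. NLGN1, a postsynaptic adhesion molecule, stood at 99.2 CPM per kb, GRIK2, a kainate receptor subunit, at 105.0, and the transcription factor gene CUX1 at 101.0. AUTS2, a regulator with roles in brain development, stood at 94.8, SEMA5A, an axon guidance molecule, at 95.0 and COL5A1, a fibrillar collagen, at 82.8. Their input levels were 79.8, 105.9, 77.8, 68.0, 105.0 and 73.7 CPM per kb in the same order. The median ratio of ChIP to input ran from 3.29 in the matrix list to 4.05 in the synaptic list, with 3.87 over all intronic regions. The ratio is on the scale of reads over gene-start windows, so it does not compare with the CPM levels above.

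Each region had been called as a peak, so ChIP above input is how it was chosen and not a finding. The size of the ratio depends on the scale and is given with libraries scaled by their reads over the gene-start windows of the second table. There the median ratio over the intronic regions was 4.64 in wild-type 10% serum, 3.92 in wild-type 0.1% serum and 3.31 in ΔLEO1 0.1% serum, and 3.10 with the lone ΔLEO1 10% serum library. Over all regions it was 4.88, 4.15, 3.34 and 3.46. On this scale each usable ChIP library exceeded each input library in 1337 intronic regions (73.3%), against 77.7% of all regions. With libraries scaled by their reads in the peak table the medians over the intronic regions were 0.969, 0.961 and 0.996 in the same 3 groups and 0.906 with the lone library. On that scale the medians over all regions were 1.02, 1.02, 1.01 and 1.01. ChIP and input are then each set to a common total over the peaks. A median near 1 was thus fixed in advance and gives no direction against input. The order of the groups turned with the scale.

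**Figure D2:**
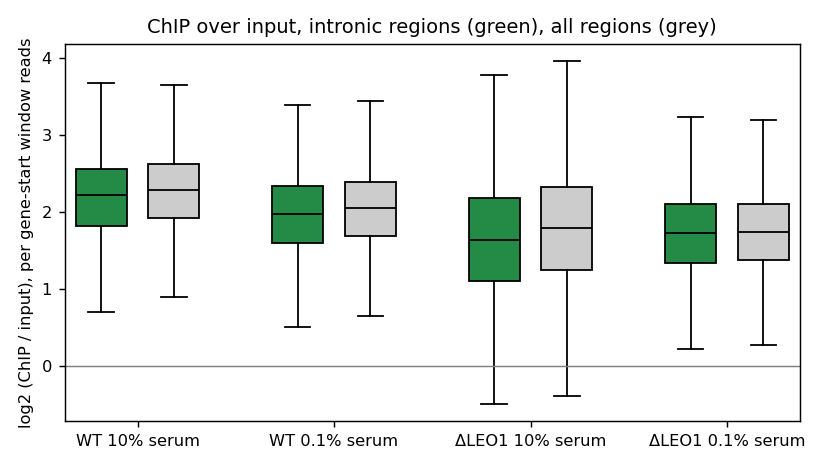
Log2 ratio of mean ChIP to mean input per region, scaled by reads over gene-start windows, for intronic regions (green) and all regions (grey) in each group. Boxes span the quartiles, lines mark medians and whiskers reach 1.5 times the box. On the linear scale the medians of the intronic regions run from 4.64 in wild-type 10% serum to 3.10 in the lone ΔLEO1 10% serum library.

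Among the region classes, the intronic regions had a median ratio of 3.87 over 3 groups on the gene-start scale. This lay below the 3.95 of intergenic non-repeat, 4.10 of LINE1 and 4.18 of LTR regions and above the 3.78 of Alu regions. The highest ChIP level per length was in intron 1 of COL23A1, a transmembrane collagen, on chromosome 5 from 178585147 to 178586171, at 339 CPM per kb with an input of 257. It held 339 and 318 CPM in wild-type 10% serum, 403 in ΔLEO1 10% serum, 384 and 408 in wild-type 0.1% serum and 340.1 and 297 in ΔLEO1 0.1% serum. In 0.1% serum the ΔLEO1 libraries were the lower ones without overlap, a log2 difference of -0.29 (SE 0.18, adjusted p = 0.690, edgeR).

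A region in CLIC6, of the chloride intracellular channel family, followed with 283 CPM per kb and an input of 170.0. By ratio on the gene-start scale, regions of CHCHD6 (7.07), CACNG7 (6.84), CLIC6 (6.81), TMEM255B (6.60), UNC5A (6.402), PARVG (6.38), PTPRN2 (6.34) and LAMA1 (6.27) led the 774 regions with at least 10 counts in each ChIP library. CACNG7 is an auxiliary subunit of calcium channels and glutamate receptors, UNC5A a netrin receptor and LAMA1 a laminin chain. On the other scale, CPM over the peaks, CHCHD6 ranged from 76.9 to 122.3 CPM over the ChIP libraries and from 42.0 to 72.1 CPM over the inputs, without overlap.

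The main comparison asked whether the mark differs without LEO1 in quiescent cells. Taken one by one, 1 intronic region was called at an adjusted p under 0.05, where 0.0621% of all regions were called. It lies in intron 1 of ADARB2, on chromosome 10 from 1625287 to 1627047. It held 114 and 112 CPM in wild-type 10% serum, 76.9 in ΔLEO1 10% serum, 153.0 and 115.5 in wild-type 0.1% serum and 35.5 and 55.8 in ΔLEO1 0.1% serum. All 3 ΔLEO1 libraries lay below all 4 wild-type libraries, and the 8 inputs held 88.2 to 134.5 CPM. In 0.1% serum the region fell by 1.502 on the log2 scale (SE 0.32, adjusted p = 0.0120, edgeR). The call was lost with DESeq2 and without each of 3 libraries, with adjusted p = 0.458 without wild-type 0.1% serum A, and 0.420 and 0.0753 without ΔLEO1 0.1% serum A and B (edgeR).

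Without adjustment, 118 intronic regions (6.47%) were higher in ΔLEO1 at p under 0.05 and 64 (3.51%) lower, where all regions gave 4.65% and 3.67%. Both ΔLEO1 libraries exceeded both wild-type libraries in 380 intronic regions (20.8%, all regions 18.1%), and lay below both in 329 (18%, all regions 19.4%). The median log2 difference was 0.05 over the intronic regions and 0.01 over all regions. With the reads of the gene-start windows as library sizes the medians were -0.23 and -0.27, so the sign of the median rests on the scale.

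The regions with the next smallest p were not called. A region of FHOD3, an actin-assembling formin, held 24.2 and 17.0 CPM in wild-type and 68.0 and 106.9 CPM in ΔLEO1 0.1% serum. Its log2 difference was 1.74 (SE 0.42, adjusted p = 0.0562, edgeR), and the wild-type levels rest on 9 and 5 reads. In wild-type 10% serum that region held 59.9 and 38.3 CPM, above the quiescent wild-type cells. ARHGAP20, a GTPase-activating protein, held 42.9 and 47.6 CPM against 121.2 and 125.5 CPM (1.33, SE 0.33, adjusted p = 0.0673, edgeR). On the lower side, a region of CTNND2, a catenin of neuronal junctions, held 75.1 and 78.1 CPM against 14.8 and 27.9 CPM (-1.64, SE 0.40, adjusted p = 0.0562, edgeR). The ΔLEO1 levels of that region rest on 5 and 6 reads. A region of the kinesin gene KIF26A held 96.6 and 105.3 CPM against 38.4 and 37.2 CPM.

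**Figure D3:**
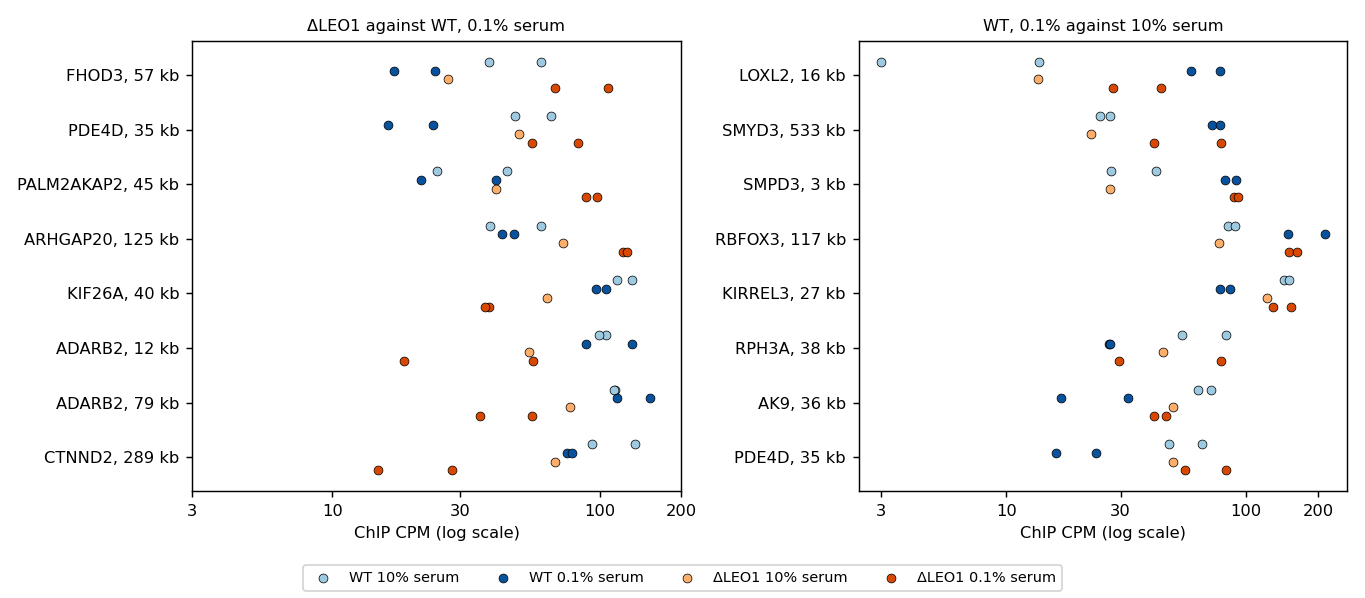
ChIP level in CPM (log axis, values under 1 drawn at 1) of the intronic regions with the smallest p in each direction, for ΔLEO1 against wild type in 0.1% serum (left) and wild-type 0.1% against 10% serum (right). Each point is 1 library, coloured by group, and each row names the gene and the distance to the nearest start. Regions were picked among those whose 2 compared groups do not overlap, with at least 10 counts in each library of the higher group. The gap between the compared groups is thus how they were picked and not a finding. The 2 ADARB2 regions and CTNND2 are among those picked as lower in ΔLEO1 0.1% serum. LOXL2 moves from 3.00 and 13.7 CPM (1 and 5 reads) to 59.0 and 78.1 CPM.

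To use the regions that share a gene, their reads were summed by host and tested with all other regions kept apart, a step chosen after the single-region values were seen. In 0.1% serum 8 of 1221 host genes (0.655%) were called, where 0.116% of all features were. The 18 features called include these 8. The called hosts except ARHGAP20 pool 4 to 15 regions, and so more reads, while each feature that is not a host is a single region. The shares are thus of unlike units, here and in the other comparisons summed by host. Of the 8, 7 were lower in ΔLEO1 and 1, ARHGAP20 with its single region, was higher (1.33, SE 0.33, adjusted p = 0.0499, edgeR). That is the region not called above (adjusted p = 0.0673, edgeR), and summing added no reads to it. Its unadjusted p was 5.4e-05 there and 5.8e-05 here (edgeR). Without adjustment 93 of the 1221 hosts were higher and 42 lower, where 4.64% and 3.7% of all features tested were.

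ADARB2 showed the smallest p. Its 15 regions held together 986 and 1092 CPM in wild-type 10% serum, 615 in ΔLEO1 10% serum, 1006 and 832 in wild-type 0.1% serum and 485 and 488 in ΔLEO1 0.1% serum. All ΔLEO1 libraries lay below all wild-type libraries, and 13 of the 15 regions were lower. The sum fell by 0.92 on the log2 scale in 0.1% serum (SE 0.13, adjusted p = 1.37e-07, edgeR). The inputs held 730 to 963 CPM and differed by -0.15 (SE 0.17).

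CDH4, with 11 regions, held 545 and 600 CPM (wild-type 10% serum), 344 (ΔLEO1 10% serum), 617 and 554 (wild-type 0.1% serum) and 314 and 335 CPM (ΔLEO1 0.1% serum). The groups by genotype did not overlap, and the sum fell by 0.85 (SE 0.16, adjusted p = 3.14e-04, edgeR), while the input differed by 0.34 (SE 0.20). CTNND2, with 6 regions, held 384 and 363 CPM in wild-type and 186 and 195 CPM in ΔLEO1 0.1% serum and fell by 0.95 (SE 0.19, adjusted p = 0.00111, edgeR). Its 6 regions were all lower. The CTNND2 input was lower too, with 401.9 and 418.1 CPM in wild-type and 331.5 and 355.4 CPM in ΔLEO1 0.1% serum (-0.246, SE 0.215).

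LINC02145, a lncRNA gene, had 4 regions, which held 362 and 428 CPM in wild-type and 195 and 218 CPM in ΔLEO1 0.1% serum (-0.92, SE 0.18, adjusted p = 0.00111, edgeR), and its input was lower too (-0.45, SE 0.21). The 4 regions of VSTM2B-DT, another lncRNA gene, held 199 and 163 CPM against 62.1 and 88.3 CPM (-1.25, SE 0.27, adjusted p = 0.00813, edgeR). IGSF21, an adhesion molecule of inhibitory synapses, fell by 1.08 (SE 0.25, adjusted p = 0.0156, edgeR) over 5 regions. GRID1, a glutamate receptor of the delta type, fell by 0.68 (SE 0.16, adjusted p = 0.0314, edgeR) over 9 regions, all of them lower.

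Other hosts with many regions were not called. SDK1 differed by -0.06 (SE 0.13), PTPRN2 by 0.13 (SE 0.12), TAFA5 by 0.06 (SE 0.13), COL22A1 by 0.00 (SE 0.14) and RBFOX1 by -0.04 (SE 0.15). SDK1 held 794 and 730 CPM in wild-type and 704 and 771 CPM in ΔLEO1 0.1% serum, groups that overlap.

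**Figure D4:**
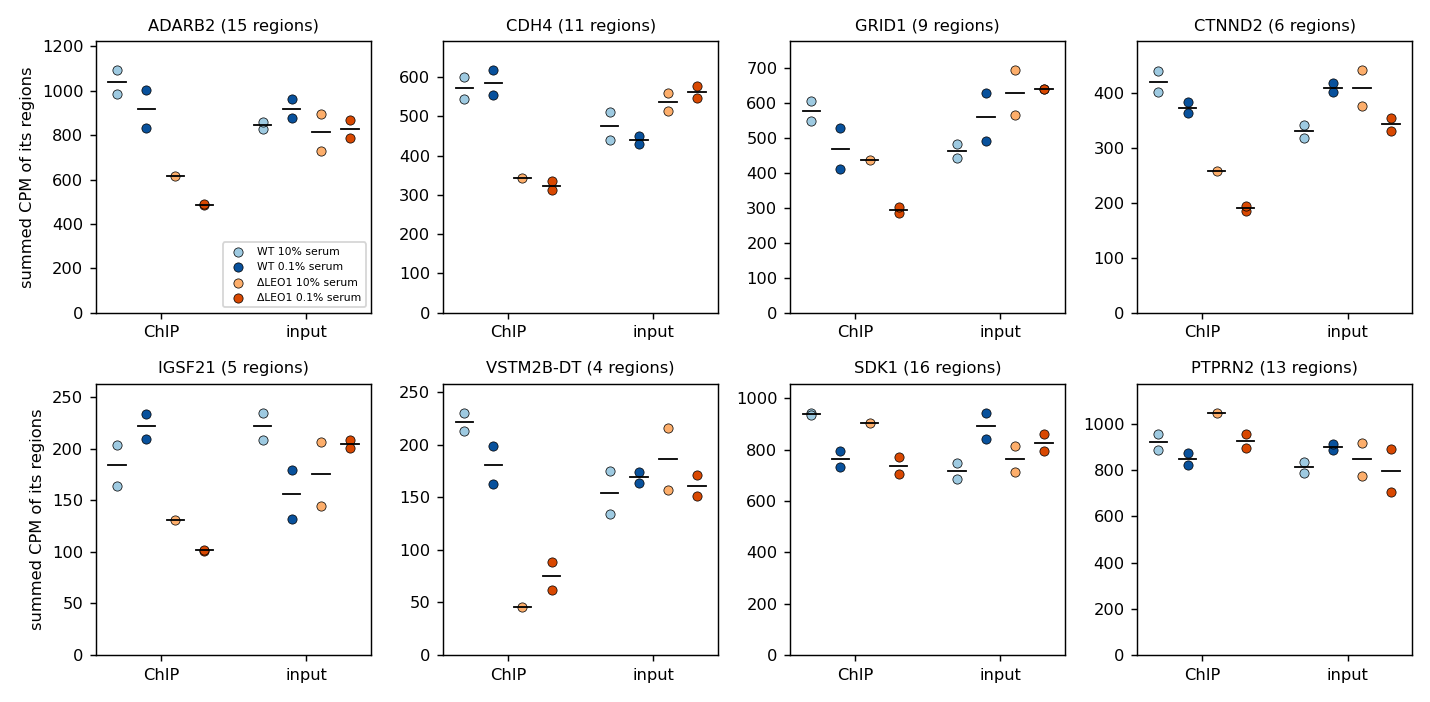
CPM summed over the intronic regions of 8 host genes in each ChIP and input library, coloured by genotype and serum, with a bar at the group mean. In ADARB2 the 3 ΔLEO1 ChIP libraries lie between 485 and 615 CPM and the 4 wild-type libraries between 832 and 1092 CPM, while its inputs span 730 to 963 CPM. SDK1 and PTPRN2 show no such gap.

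These calls depended on the model. DESeq2, the fit that took off the input difference and the fit with all 8 ChIP libraries each called 0 host genes. With the input taken off, ADARB2 differed by -0.75 (adjusted p = 0.354, edgeR) and CDH4 by -1.17 (adjusted p = 0.0813, edgeR). Without ΔLEO1 0.1% serum A only 1 host was called, and without wild-type 0.1% serum A 2 hosts, 5 without wild-type 0.1% serum B and 4 without ΔLEO1 0.1% serum B. ADARB2 was among those called whichever of the 7 libraries was left out. ARHGAP20 and GRID1 were also not called without either wild-type 10% serum library, where the adjusted p of GRID1 was 0.0832 and 0.0940 (edgeR).

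Regions around these genes that are not intronic non-repeat differed in part as they did. The 6 other regions between the ADARB2 regions held 299 to 446 CPM in wild-type and 195 to 271 CPM in ΔLEO1 ChIP libraries. The 19 regions in the 1 Mb above held 1016 to 1162 CPM against 736 to 918 CPM, while the 4 regions in the 1 Mb below overlapped. The 18 regions in the 1 Mb below LINC02145 held 1029 to 1276 CPM against 603 to 716 CPM, while the 10 regions in the 1 Mb above it overlapped (695 to 774 against 543 to 702 CPM over both sera). The 19 regions in the 1 Mb below CDH4 overlapped between genotypes.

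The genotype difference of the intronic regions varied with distance to the chromosome end, and near the ends it lay close to that of all regions. In 0.1% serum, ChIP reads within 5 Mb of an end made up 19.4% and 18.4% of the reads in intronic regions in wild type and 16.42% and 16.01% in ΔLEO1. In 10% serum they made up 19.9% and 19.6% in wild type and 19.0% in ΔLEO1, and in the inputs 16.6% to 17.5%. The quiescent ΔLEO1 ChIP libraries thus differed from wild type by -2.67 percentage points on average, where the inputs differed by 0.31 points. Of the reads in all regions, the mean share near the ends was 9.72% in wild-type and 8.94% in ΔLEO1 0.1% serum ChIP. In the inputs of the same groups it was 9.25% and 9.31%. Near the ends 9 of 323 intronic regions were higher (2.79%, all regions 3.88%) and 26 lower (8.05%, all regions 7.38%) at an unadjusted p under 0.05. Farther in, 109 of 1496 were higher (7.29%, all regions 4.73%) and 37 lower (2.47%, all regions 3.26%). ADARB2 and CDH4 lie 1.33 and 2.46 Mb from an end, and GRID1 lies 47.6 Mb from one. The median log2 difference of the intronic regions was -0.15 near the ends and 0.09 farther in, and over all regions it was -0.11 and 0.02.

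**Figure D5:**
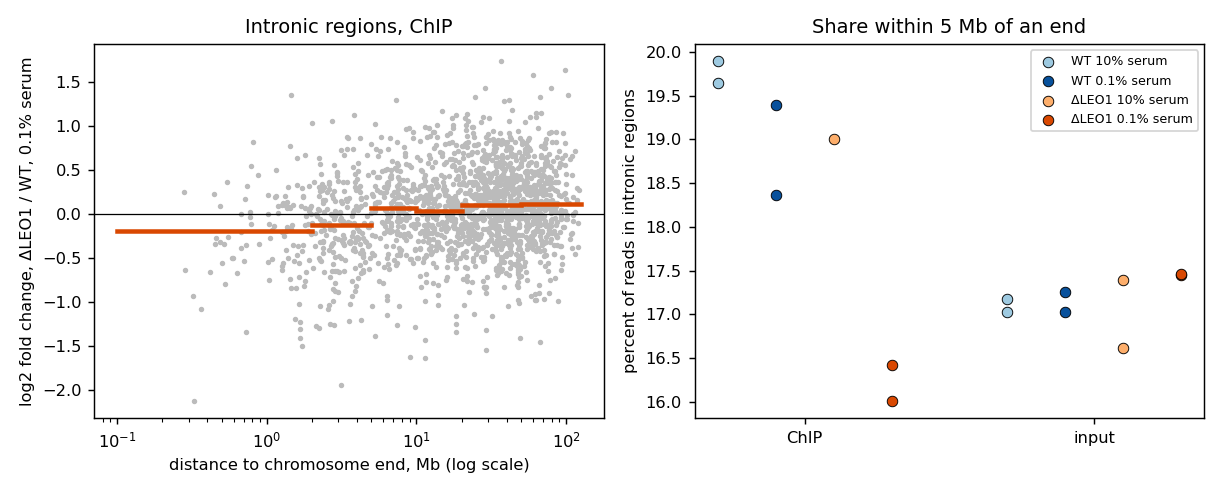
Left, log2 difference of ΔLEO1 against wild type in 0.1% serum for each intronic region (grey) by distance to the chromosome end (log axis), with the median of each distance range in orange, from -0.19 below 2 Mb to 0.11 beyond 50 Mb. Right, percent of reads in intronic regions that lie within 5 Mb of an end, 1 point per library, where both ΔLEO1 0.1% serum ChIP libraries lie at 16.01 and 16.42%.

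Over 3 stretches, chosen after seeing the data and not from a listed scan of the genome, ΔLEO1 input reads were lower. The stretches are chromosome 3 from 40 to 60 Mb, chromosome 4 from 80 to 190 Mb and chromosome 5 up to 20 Mb. They hold 69 intronic regions, among them those of CTNND2 and LINC02145. Of these regions 10 (14.5%) were lower in ΔLEO1 ChIP in 0.1% serum at an unadjusted p under 0.05 and 0 higher. Of the 840 regions of any class there, 134 (16%) were lower and 3 higher, so the intronic regions lay near the share of all. The median ChIP and input differences of the intronic regions in 0.1% serum were -0.10 and -0.11, -0.40 and -0.21, and -0.45 and -0.22 on the log2 scale. In 10% serum their input medians were -0.01, -0.22 and -0.04, and the summed input of CTNND2 differed by 0.29 (SE 0.22) and that of LINC02145 by -0.03 (SE 0.22). Over all regions of the stretches the input medians were lower in both sera. They were -0.19, -0.31 and -0.12 in 0.1% serum and -0.17, -0.19 and -0.12 in 10% serum. The part of the input in the ChIP difference was not tested.

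In wild-type cells, 0.1% against 10% serum gave 0 called intronic regions with edgeR and 0 with DESeq2, and 0% of all regions were called. Without adjustment 87 (4.77%) were higher in 0.1% serum and 67 (3.68%) lower, against 3.34% and 3.93% of all regions. Both libraries exceeded both of the other group in 340 (18.7%, all regions 17.7%) and lay below in 334 (18.3%, all regions 19.5%). This comparison and the genotype comparison share the wild-type 0.1% serum libraries. Summed by host, 0 genes were called, with 79 of 1221 higher and 41 lower without adjustment, where 3.66% and 3.68% of all features were.

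A region of LOXL2, a collagen-crosslinking lysyl oxidase that fibroblasts secrete, showed the smallest p. It held 3.00 and 13.7 CPM in wild-type 10% serum, 13.6 in ΔLEO1 10% serum, 59.0 and 78.1 in wild-type 0.1% serum and 44.4 and 27.9 in ΔLEO1 0.1% serum. The wild-type 10% serum levels rest on 1 and 5 reads, and the wild-type 0.1% serum levels on 22 and 23. All 10% serum libraries lay below all 0.1% serum libraries, and the wild-type difference was 2.31 (SE 0.55, adjusted p = 0.0726, edgeR). RBFOX3, a neuronal splicing factor, held 83.9 and 90.4 CPM in 10% serum and 150.3 and 214 CPM in 0.1% serum (0.99, SE 0.25, adjusted p = 0.119, edgeR). SMPD3, a neutral sphingomyelinase, held 42.0 and 27.4 CPM against 91.2 and 81.5 CPM. KIRREL3, a synaptic adhesion molecule, held 143.8 and 150.6 CPM in 10% serum and 85.9 and 78.1 CPM in 0.1% serum (-0.79, SE 0.26, adjusted p = 0.507, edgeR).

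With 1 ΔLEO1 library in 10% serum, the genotype comparison there assumes that it varies like the others. It called 0 intronic regions (0% of all), with 73 (4%) higher and 67 (3.68%) lower without adjustment, against 3.84% and 3.16% of all regions. Summed by host, 3 genes were called (0.0323% of all features), all lower. VSTM2B-DT held 231 and 214 CPM in wild type (77 and 78 reads) and 45.2 CPM in ΔLEO1, a log2 difference of -2.14. That ΔLEO1 level rests on 10 reads over its 4 regions in 1 library. ADARB2 differed by -0.75 (SE 0.17, adjusted p = 0.0362, edgeR) and ADGRD1, an adhesion G protein-coupled receptor, by -1.18 (SE 0.27, adjusted p = 0.0395, edgeR). Only 1 gene was called when any of the wild-type 10% serum or ΔLEO1 0.1% serum libraries was left out, and ADARB2 was then not called.

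In ΔLEO1 cells, 0.1% against 10% serum called 0 intronic regions, with 96 (5.27%) higher and 58 (3.18%) lower without adjustment, against 3.69% and 3.96% of all regions. A region of CALD1, the actin-binding caldesmon, held 4.52 CPM in the 10% serum library and 82.8 and 51.1 CPM in 0.1% serum, a log2 difference of 2.78. Wild type held 46.5 to 61.7 CPM. In that 10% serum library 10 reads came to 45.2 CPM, so 4.52 CPM lies at the floor of the counts. The interaction of genotype and serum called 0, with 69 (3.78%) higher and 39 (2.14%) lower, against 3% and 2.54%. A TAFA5 region with 203.5 CPM in ΔLEO1 10% serum and 69.7 to 120.8 CPM elsewhere differed by -1.51 (SE 0.44, adjusted p = 0.866, edgeR) in that test. DESeq2 called 0 in each of these.

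The inputs, tested the same way, served as background. Of 1624 intronic regions tested, 0 were called between genotypes in either serum. In 0.1% serum 31 were higher and 21 lower without adjustment, where 1.6% and 1.67% of all 14018 regions were. In 10% serum 35 were higher and 42 lower, against 2.58% and 2.81%. Summed by host, 0 of 1136 genes were called in either serum, against 0.0222% of all features.

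By gene list, 0 regions were called in any list in the genotype or the wild-type serum comparison with edgeR. Without adjustment, 6 of the 103 synaptic regions were higher and 6 lower in ΔLEO1 0.1% serum, and 6 and 4 of the 87 channel and receptor regions, against 4.65% and 3.67% of all regions. Among the 25 axon guidance regions 1 was higher and 0 lower, among the 59 of fragile sites 2 and 1, and among the 40 of regulators 2 and 3. The 8 matrix regions gave 0 in either direction by genotype, and 2 higher and 0 lower in 0.1% against 10% serum (3.34% and 3.93% of all regions), with a median of 0.39 against 0.02 over all intronic regions.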

How the data were processed

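ChIP and input DNA of BJ-5ta cells were sequenced in 16 libraries. The authors deposited raw read counts over merged peak regions and over windows of 2 kb at gene starts. The submitters' processing notes name bcl2fastq 2.20.0.422, STAR 2.7.10a, HOMER, hg38 and dm6, and the methods of the study name csaw. Peak caller settings, duplicate handling and which libraries the peaks came from are not given in the sources used here. No fly contigs are in the tables, so the spike-in was left aside.

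Counts of 7 ChIP libraries were fitted over all regions with edgeR 4.0.16 (R 4.3.3), by the two-sided quasi-likelihood F-test with 1 coefficient per group, filterByExpr (minimum count 10), TMM and a prior count of 2. Inputs were fitted apart. P-values were adjusted by Benjamini-Hochberg over all regions, with a threshold of 0.05, and SEs derive from the F statistic. The fit was tested on simulated data. DESeq2 1.42.0, other library sizes, left-out libraries and other settings were tried. Host genes came from RefSeq (GRCh38.p14) by transcript. Sequences are from the RefSeq promoter table.

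Named regions were those called, the smallest p in each direction among regions whose groups do not overlap, the highest levels and ratios, the nearest and farthest from a start, and the highest of each gene list. For those picked by p, the higher of the groups compared had to hold at least 10 counts in each library. The members and lists were chosen with earlier results of these data known. Some items are not reported here.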

Additional observations from a re-analysis of the deposited data

How the results depend on the processing

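Read counts limit single regions, and replicate libraries correlated at 0.545 to 0.579 (Pearson, log2 CPM) in ChIP. In 0.1% serum, the 1 intronic region called between genotypes became 0 with DESeq2, with input taken off and with all 8 ChIP libraries, 18 with gene-start totals, and 0 to 2 with a library left out. The 182 regions with an unadjusted p under 0.05 became 55 with DESeq2 and 68 with all 8 libraries. The median log2 difference over all intronic regions, 0.053, became 0.069 with DESeq2, -0.226 with gene-start totals, 0.035 without TMM, 0.041 in NM transcripts, 0.066 without the 3 stretches of lower input and 0.031 to 0.076 with a library left out. For serum in wild type, 154 became 21 with DESeq2 and 47 with all 8 libraries, the median of 0.025 became -0.082 with gene-start totals and -0.001 to 0.039 with a library left out, and called regions numbered 0 to 1. Input in 10% serum gave 0 to 15 called regions with a library left out, 15 of them without ΔLEO1 10% serum input replicate B.

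Host genes called in 0.1% serum (8) became 0 with DESeq2, input taken off and all 8 libraries, 18 with gene-start totals and 1 to 7 with a library left out. In 10% serum (3) they became 0 with DESeq2 and all 8 libraries, 5 with gene-start totals and 1 to 3 with a library left out. The letters A and B did not pair the libraries (correlations of A minus B from -0.0045 to 0.0257). With the replicate block 6 hosts were called in 0.1% serum and 1 in 10% serum, where the ADARB2 adjusted p was 0.386 (edgeR), and the single-region counts stood at 1, 186 and 154.

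The median ratios of ChIP to input on peak totals were 0.969, 0.961 and 0.996 in wild-type 10%, wild-type 0.1% and ΔLEO1 0.1% serum, and 4.64, 3.92 and 3.31 on gene-start totals. In regions with at least 10 counts they were 0.998 and 1.06 in the 0.1% serum groups, and with a library left out 0.954 to 0.983, 0.958 to 0.991 and 0.972 to 1.02. Intronic regions held 10.99% and 11.32% of peak reads in wild-type and ΔLEO1 0.1% serum, 11.02% and 11.36% without regions over 100 input counts, and 8.76% and 8.99% in NM transcripts. Divided by the total of the gene-start table, a ratio between separate tables, their reads came to 1.21% and 1.01%. The difference near chromosome ends, -2.67 points, was -1.12 at 2 Mb and 0.312 in the inputs. The causes were not tested. The host sums, the end distances and the fit without 3 stretches were chosen after seeing the data.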
